A study of Mus musculus with 32 samples.

Results

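Undifferentiated macrophages sorted from mouse gliomas were compared with the microglia sorted from such tumours. The members were chosen by label alone: 8 libraries of the population labelled Tumour Undifferentiated Macrophage and 8 labelled Tumour Microglia, 16 of the 32 libraries of the series. Both populations came from immunocompetent chimeric mice in which cultured GL-261 cells, a mouse glioma line, had been placed in the brain. Of the 8 libraries on either side, 4 were from C57BL/6J recipients with a Pep3 graft (called WT recipients here) and 4 from recipients of the Pep3/CD45.1 strain with a WT graft (Pep3 recipients). By the labels, macrophages of WT recipients and microglia of Pep3 recipients belong to experiment 3, the others to experiment 4. The labels used here name no treatment of these mice, and all of the mice carried a graft, so neither population is a sample of an unmanipulated brain. The cell type grafted, the sorting gates and the number of animals are not given in the sources used here. No source names separate animals behind the libraries, so a p-value reflects only how these samples vary, and that variation may be technical. Differentiated macrophages from the same kind of tumour (8 libraries) and normal microglia from mice without a tumour (8 libraries) entered the statistical model and are cited only for reference.

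Microglia settle in the brain before birth and maintain themselves there, guided by local TGF-beta and by the transcription factor Sall1. Their resting programme includes the ADP receptor P2ry12, the surface protein Tmem119 and the fractalkine receptor Cx3cr1, which serve surveillance of the tissue. Macrophages that enter a glioma from the blood derive from monocytes, of which the classical, inflammatory kind carries Ly6C and the chemokine receptor CCR2. In bulk samples such as these, fewer cells of a type and less RNA per cell cannot be told apart.

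The deposited values are signed scores of an unstated scale that run from -6.50 to 6.92 and are centred on 0 for every gene. A score is neither an amount of RNA nor comparable between genes, so all differences below are in units of that scale, without fold changes, and the sequencing depth behind them is unknown. A difference is the fitted value for undifferentiated macrophages minus tumour microglia ± 1 SE (n = 8 and 8), and it can exceed the gap between group medians because the model allows for 11 sample directions that carry no variation in the table. A gene is called higher or lower at a Benjamini-Hochberg adjusted p below 0.05 in limma over all 17586 genes.

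Libraries of undifferentiated macrophages had higher scores for most genes. Library medians averaged 0.289 ± 0.116 (SD, n = 8) in this population and -0.331 ± 0.197 in tumour microglia, and the median fitted difference of all genes was 0.71. As deposited, 6448 genes (36.7% of those tested) were called higher and 913 (5.19%) lower. With the median of each library subtracted, 2934 (16.7%) were called higher and 2862 (16.3%) lower, so the list counts below are given as deposited and with medians subtracted. Each list count is to be read against the share over all genes in its direction and scaling. A count near that share is no result about the list. Where a list had 0 genes called in a direction by limma, at most 2 of its genes had an unadjusted p below 0.05 in that direction under the same scaling. The libraries did not overlap between the populations for 1191 genes (6.77%) on the higher and 231 (1.31%) on the lower side as deposited, and for 336 (1.91%) and 713 (4.05%) with medians subtracted. Of its own variation, undifferentiated macrophage library 29 kept 3.42%, library 8 kept 20% and tumour microglia library 27 kept 39%, while the other 13 libraries kept 75.1% or more. The values of these 3 libraries are largely fixed by those of others. A lack of overlap is thus a description here and not a count of 8 independent values on each side. It was also a condition for naming the genes with the largest differences, so it is no support for them. Those genes include Ly6c2, S100a6, S100a4, Ccr2, Mefv, Nr1h3, Tgfbi, P2ry12, Siglech, Ctsf and Ccl4.

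The marker lists of both labels differed in the direction of the label. They were chosen with earlier results of these data known, so their counts are no independent support for the labels. Genes of classical monocytes were higher in undifferentiated macrophages, with Ly6c2, S100a6, Ccr2 and S100a4 in the lead, and the resting microglial programme was lower throughout. All 13 measured classical monocyte genes were called higher as deposited and 11 with medians subtracted, with a median difference of 3.27 against 0.71 over all genes. All 16 homeostatic microglia genes were called lower both ways, with a median difference of -2.80. Without the 3 libraries that kept little of their own variation, 11 of the 13 monocyte genes were higher and all 16 microglial genes lower. The median difference was then 3.09 for the monocyte genes and -3.19 for the microglial genes.

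Ly6c2 encodes the Ly6C antigen that defines inflammatory monocytes. Its score ran from 1.20 to 4.81 in undifferentiated macrophages (median 2.56) and from -2.51 to -0.804 in tumour microglia (median -1.74). Every macrophage library stood above every microglial one, with a difference of 5.57 ± 0.44 (adjusted p = 5.36e-08). It was also called between the macrophage populations, at 3.17 ± 0.48 units above differentiated macrophages (adjusted p = 0.017). Only S100a4 was called in that contrast besides Ly6c2, at 3.10 ± 0.51 (adjusted p = 0.032). These were 2 genes, 0.0114% of those tested. On the lower side limma called 0 genes, while 169 had an unadjusted p below 0.05.

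The bases before the start sites of Ly6c2, of S100a6 and of 2 microglial receptor genes, P2ry12 and Cx3cr1, are shown as examples of genes called in opposite directions. Each is 250 bases up to the start site, on the gene's strand, from RefSeq on GRCm38.p6, while the submitters' processing notes name mm9. The windows are chr15:75111972-75112221 (minus strand, the first of 2 listed for Ly6c2), chr3:90612644-90612893 (plus, S100a6), chr3:59262986-59263235 (minus, P2ry12) and chr9:120068297-120068546 (minus, Cx3cr1). Capitals mark matches on either strand to 4 short motifs: GAGGAAGT for the myeloid factor PU.1, TGTGGT for RUNX factors, TTGCNNAA for C/EBP factors and CTA, any 4 bases, TAG for MEF2 factors.
Ly6c2: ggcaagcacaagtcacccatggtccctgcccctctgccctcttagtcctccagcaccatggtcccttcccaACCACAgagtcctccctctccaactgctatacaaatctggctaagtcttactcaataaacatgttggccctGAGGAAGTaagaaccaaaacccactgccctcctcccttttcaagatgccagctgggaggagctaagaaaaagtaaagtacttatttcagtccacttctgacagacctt
S100a6: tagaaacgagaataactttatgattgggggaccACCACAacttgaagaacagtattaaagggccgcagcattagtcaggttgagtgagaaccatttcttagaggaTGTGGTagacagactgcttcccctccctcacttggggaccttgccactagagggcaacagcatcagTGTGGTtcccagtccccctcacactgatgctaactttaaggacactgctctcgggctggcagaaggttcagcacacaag
P2ry12: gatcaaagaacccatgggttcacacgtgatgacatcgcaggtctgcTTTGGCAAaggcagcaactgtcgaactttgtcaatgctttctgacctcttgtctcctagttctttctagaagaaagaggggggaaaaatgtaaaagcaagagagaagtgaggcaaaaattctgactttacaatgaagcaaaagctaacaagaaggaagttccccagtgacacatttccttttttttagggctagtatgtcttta
Cx3cr1: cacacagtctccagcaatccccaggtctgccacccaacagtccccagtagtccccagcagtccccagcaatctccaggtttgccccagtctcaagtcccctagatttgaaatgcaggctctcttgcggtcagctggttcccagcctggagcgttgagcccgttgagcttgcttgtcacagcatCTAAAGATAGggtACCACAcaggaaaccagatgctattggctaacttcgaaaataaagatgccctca
The Ly6c2 window held the PU.1 letters 108 bases before the start and the RUNX letters in reverse further up. The S100a6 window held the RUNX letters 3 times, the P2ry12 window a C/EBP match, and the Cx3cr1 window a MEF2 and a RUNX match. A match is a description of letters and not a binding site. The RUNX letters stood in 14% of all 32851 RefSeq windows and in 11.1% of the 13645 windows of genes in the table. They stood in 12% of windows of genes that were called higher both ways without overlap, and in 14.8% of those of genes called lower. The PU.1 letters stood in 2.44% of all windows, 2.29% of those of the table, 2.39% of the higher and 4.59% of the lower set. For the MEF2 letters these shares were 3.20%, 2.89%, 4.19% and 3.57%, and for the C/EBP letters 9.56%, 8.43%, 9.87% and 9.18%. The higher set held 525 genes with 669 RefSeq windows and the lower set 152 genes with 196 windows. The PU.1 letters stood in 16 windows of the higher and 9 of the lower set, so the latter share rests on few windows.

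S100a6 and S100a4 encode small calcium-binding proteins of migrating myeloid cells. S100a6 ran from 1.42 to 3.76 in undifferentiated macrophages (median 2.80) and from -3.41 to 0.721 in tumour microglia (median -2.60), a difference of 5.35 ± 0.56 (adjusted p = 2.28e-06). The populations did not overlap. S100a4 ran from 0.577 to 4.65 (median 2.11) against -2.24 to -0.123 (median -1.18), and again no libraries overlapped. Its difference was 4.46 ± 0.47 (adjusted p = 2.28e-06). S100a10, the partner of annexin A2, was higher by 2.62 ± 0.40, and Anxa2 itself by 2.55 ± 0.51. Not every relative followed: S100a11 differed by 1.44 without being called, and Anxa3 was lower, at -1.71. S100a8 and S100a9 were not analysed here.

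Ccr2 is the receptor through which classical monocytes leave the bone marrow toward CCL2. Its score ran from 1.27 to 4.05 in undifferentiated macrophages (median 1.93) and from -3.39 to -1.14 in tumour microglia (median -1.74). The libraries were cleanly apart, and the difference was 4.98 ± 0.50 (adjusted p = 2.07e-06). Of its ligand genes, Ccl2 and Ccl7 were not called, with differences of 0.03 and 1.24, while Ccl12 was called lower. Other receptors for recruitment were higher as well. Cxcr4, the CXCL12 receptor, was higher by 4.03 ± 0.51, the formyl peptide receptor Fpr2 by 3.38 ± 0.47 and Ccr1 by 2.14 ± 0.53. Of the 10 measured chemokine receptors, 5 were called higher and 1 lower as deposited, and 4 and 2 with medians subtracted. The receptor that was lower both ways was the microglial Cx3cr1.

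Single adhesion genes were called in each direction. In the list of 14 below, higher calls were near the share over all genes (36.7% as deposited, 16.7% with medians subtracted). Itga4, the alpha chain of the VLA-4 integrin, was higher by 2.70 ± 0.52, and the hyaluronan receptor Cd44 by 2.24 ± 0.46. Selplg, the P-selectin ligand, was lower by a difference of -2.41 ± 0.39, Itga6 by -1.54 ± 0.35 and Itgam (CD11b) by -1.26 ± 0.33. Of 14 integrin and homing genes, 5 were called higher and 3 lower, or 3 and 5 with medians subtracted. The 5 became 3 when any one of microglial libraries 6 and 14 or macrophage libraries 13, 16 and 21 was left out.

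The rest of the classical monocyte list included Chi3l3, a secreted chitinase-like lectin, at 4.40 ± 0.75, and the C-type lectin Clec4e at 3.29 ± 0.65. Fibronectin, Fn1, was higher by 3.13 ± 0.59 and Plac8 by 3.08 ± 0.68. The lysozyme gene Lyz2 (1.25 ± 0.37) and Ms4a4c (1.88 ± 0.55) were called as deposited only. Among 15 genes of monocyte-derived macrophages, 13 were called higher as deposited and 10 with medians subtracted, and 0 were called lower by limma. Tgfbi, a matrix protein induced by TGF-beta, ran from 1.43 to 3.42 (median 2.14) in undifferentiated macrophages and from -2.97 to -1.24 (median -2.44) in tumour microglia. The 16 libraries fell into 2 blocks with a wide gap, and the difference was 5.06 ± 0.35 (adjusted p = 7.28e-09). The haptoglobin gene Hp was higher by 4.53 ± 0.86, and one library, number 21, lay far above the others. Ifitm3, an interferon-induced membrane protein, was not called (-0.30 ± 0.47), and neither was S100a11.

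**Figure D1:**
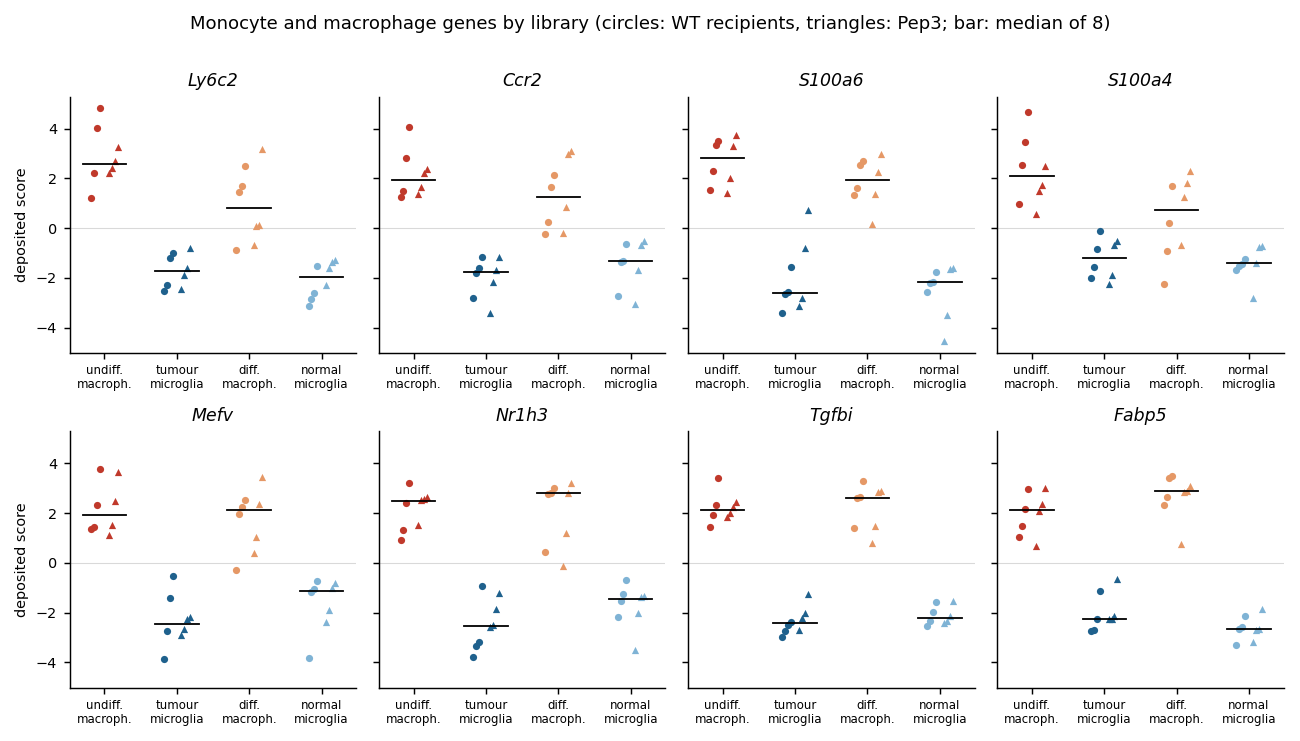
Deposited score (vertical axis, units of the deposited scale) of 8 monocyte and macrophage genes in every library of 4 populations, with circles for WT and triangles for Pep3 recipients and a bar at the median of 8. Undifferentiated macrophages lie above tumour microglia for all 8 genes without overlap, and for Ly6c2 and S100a4 they also lie higher than differentiated macrophages on the median.

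A pair of regulators outside the surface programme were among the largest differences. Mefv encodes pyrin, an inflammasome sensor of myeloid cells. Its score ran from 1.11 to 3.75 in undifferentiated macrophages (median 1.92) and from -3.88 to -0.524 in tumour microglia (median -2.45). The libraries did not overlap, and the difference was 5.36 ± 0.55 (adjusted p = 2.28e-06). Nr1h3 encodes the oxysterol receptor LXR-alpha, which switches on genes of cholesterol export. It ran from 0.915 to 3.20 (median 2.48) against -3.77 to -0.912 (median -2.54). Again the populations were apart, and the difference was 5.12 ± 0.57 (adjusted p = 4.41e-06).

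The list around each of these regulators did not move as a whole. Of 13 inflammasome genes, 3 were called higher as deposited (Mefv, Il1b and Nlrc4) and 4 lower. With medians subtracted the counts were 3 and 8. The cytokine Il1b was higher by 2.98 ± 0.57 and Nlrc4, a sensor of bacterial flagellin, by 2.06 ± 0.37. On the lower side were the cytokine Il18 (-2.16 ± 0.49), the DNA sensor Aim2 (-1.77 ± 0.38), the pore-forming Gsdmd (-1.40 ± 0.43) and the adaptor Pycard (-0.79 ± 0.31). The sensor Nlrp3 and the protease Casp1 were not called as deposited, at -0.41 and -0.91. Without undifferentiated macrophage library 29, Gsdmd stood at -1.07 and was not called, and 2 genes of the list were lower. The call of Pycard was lost when any one of 12 of the 16 libraries was left out, with values from -0.91 to -0.62 over all 16 omissions.

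The LXR list was split in the same way. Of 14 measured genes of LXR, PPAR and lipid handling, 4 were called higher and 1 lower as deposited, and 3 and 4 with medians subtracted. Fabp5, a fatty acid carrier, was higher by 4.32 ± 0.45, and Plin2, which coats lipid droplets, by 2.53 ± 0.45. Fabp5 ran from 0.672 to 3.00 (median 2.12) against -2.75 to -0.663 (median -2.24), with no overlap. The partner receptors were not called: Nr1h2, LXR-beta, stood at -0.41, Rxra at -0.27 and Ppard at 0.94. The LXR target genes were mixed. Apoe was higher by 1.52 ± 0.49 as deposited and not called with medians subtracted (0.80 ± 0.49, adjusted p = 0.208). The cholesterol exporter Abca1 stood at -0.77 ± 0.34, Abcg1 at 0.47, and Mylip, which degrades lipoprotein receptors, was called lower at -1.35 ± 0.54. Apoe was not called without undifferentiated macrophage library 8 (1.28) or 21 (1.27). The call of Mylip was lost when any one of 10 of the 16 libraries was left out, with values from -2.00 to -0.93, and Abcg1 stood at -0.25 with medians subtracted.

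The microglial programme was lower across its receptors and regulators. P2ry12, the receptor that steers microglial processes toward released ADP, ran from -3.20 to -0.369 in undifferentiated macrophages (median -1.52) and from 0.391 to 1.66 in tumour microglia (median 1.14). The populations did not overlap, and the difference was -3.23 ± 0.43 (adjusted p = 2.06e-05). Tmem119 ran from -2.12 to -0.903 (median -1.60) against 0.624 to 1.40 (median 0.855), and its difference was -2.87 ± 0.31 (adjusted p = 3.28e-06). Both genes thus separated the libraries fully.

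Cx3cr1 binds fractalkine from neurons. Its score ran from -1.90 to -0.781 in undifferentiated macrophages (median -1.43) and from 0.0877 to 1.72 in tumour microglia (median 0.857), with a difference of -2.70 ± 0.30 (adjusted p = 4.54e-06). Siglech, a sialic acid receptor used as a microglial marker, ran from -3.22 to -1.05 (median -1.70) against 0.537 to 1.90 (median 1.25). Its difference of -3.76 ± 0.41 was, with that of the fructose transporter Slc2a5 (-3.76 ± 0.49), the most negative of the list. The list's other members lay between these and Tgfbr1 at -1.27 ± 0.31. They included the lipid receptor Trem2 (-2.07 ± 0.30) and Csf1r (-1.98 ± 0.29), the receptor on which microglial survival depends. For all 16 the libraries did not overlap as deposited.

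**Figure D2:**
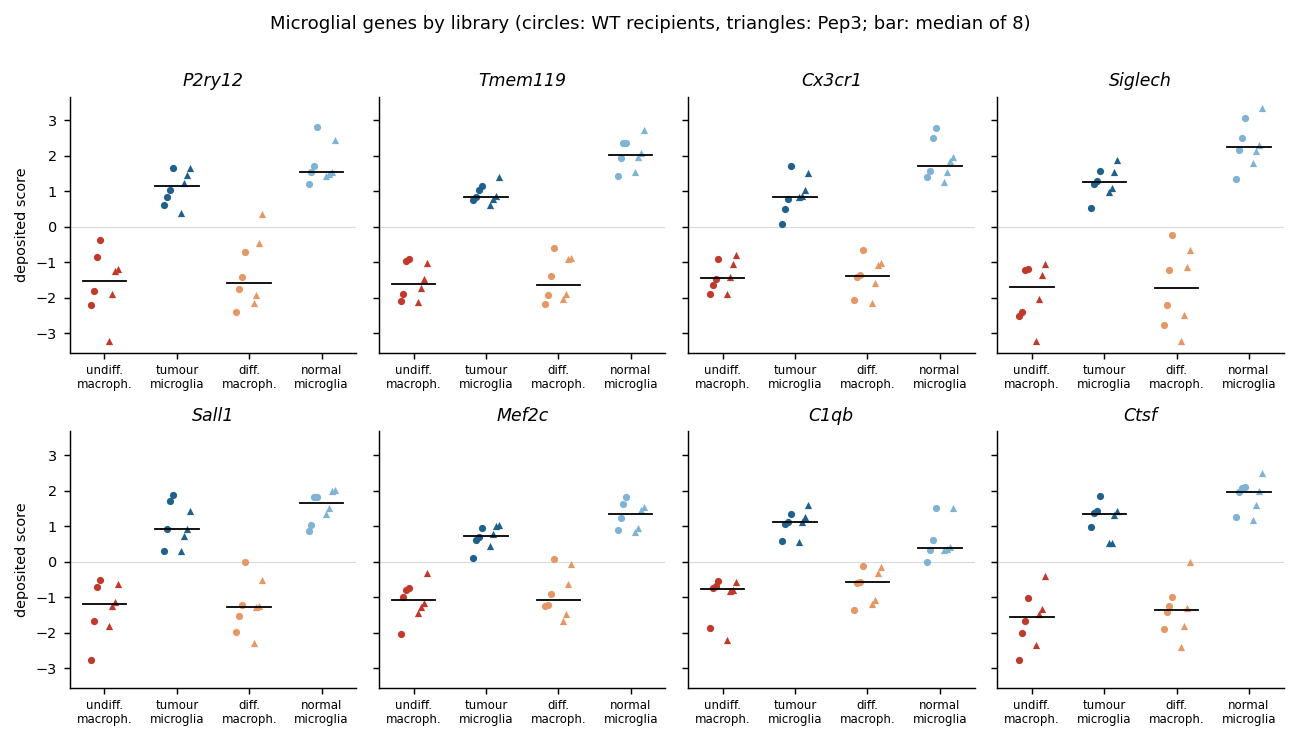
Deposited score (vertical axis, units of the deposited scale) of 8 microglial genes in every library of 4 populations, drawn as in the plot of monocyte genes. Tumour microglia lie above undifferentiated macrophages for all 8 genes without overlap, and the medians of the macrophage populations lie close together.

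Among the largest differences in either direction were genes outside these lists. On the higher side were Klra2, an inhibitory lectin-like receptor, at 4.75 ± 0.47, the schlafen family member Slfn4 at 4.67 ± 0.61 and Plbd1, a phospholipase-like protein of myeloid granules, at 4.44 ± 0.41. AA467197 was higher by 5.02 ± 0.53 and Ahnak, a large scaffold protein, by 4.33 ± 0.48. On the lower side, Ccl4 (-5.72 ± 1.02) was followed by the crystallins Crybb1 (-3.84 ± 0.49) and Cryba4 (-3.33 ± 0.54) and the leukotriene C4 synthase Ltc4s (-3.80 ± 0.40). Bin1, which bends membranes during endocytosis, stood at -3.63 ± 0.49, the tetraspanin Cd81 at -3.56 ± 0.41 and the cystatin Cst7 at -3.21 ± 0.43. Lack of overlap was a condition for naming these genes, so it is no support for them.

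Genes of nucleotide sensing were called in both directions. Of 12 genes in a list of microglial purinergic and ion sensing, which includes channels and an enzyme beside receptors, 6 were called lower and 1 higher as deposited, and 7 and 1 with medians subtracted. P2ry13 stood at -2.73 ± 0.34, the adenosine receptor Adora3 at -2.45 ± 0.41, the proton channel Hvcn1 at -1.53 ± 0.40 and the ATP-degrading Entpd1 at -1.42 ± 0.37. P2rx4 and P2rx7, ATP-gated channels, were not called (0.39 and 0.18), nor was the nucleotide receptor P2ry6 as deposited (-0.66). The gene that was higher was Kcnn4, a calcium-activated potassium channel of activated myeloid cells, which ran from 0.126 to 2.53 (median 1.07) against -2.85 to -1.25 (median -2.17). Its difference was 3.63 ± 0.44 (adjusted p = 9.1e-06), without overlap. Of all 12 P2rx and P2ry receptors of the table, 5 were higher and 3 lower as deposited, with a median difference of 0.63, and 4 and 4 with medians subtracted. P2ry1, another ADP receptor, was the highest of them, by 2.54 ± 0.55.

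The TGF-beta receptors followed the resting programme. Tgfbr2 was lower at -1.70 ± 0.34, Tgfbr1 at -1.27 ± 0.31 and Itgb5, an integrin chain, at -1.62 ± 0.30. The inhibitor Smad7 stood at -1.04 ± 0.36, and its call was lost without tumour microglia library 6 (-0.92) or 27 (-1.01) or undifferentiated macrophage library 29 (-1.01) or 32 (-0.81). The ligand Tgfb1 (-0.30) and the signal transducer Smad3 (0.12) were not called. Of the 11 genes, 4 were lower and 2 higher as deposited, and 5 and 1 with medians subtracted.

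Complement genes were called in both directions. The C1q chains, which start the classical pathway, were lower: C1qb stood at -2.54 ± 0.35, C1qa at -1.98 ± 0.35 and C1qc at -1.48 ± 0.30. C1qb ran from -2.20 to -0.553 in undifferentiated macrophages (median -0.772) and from 0.539 to 1.60 in tumour microglia (median 1.12), so the populations did not overlap. C4b was lower too (-2.05 ± 0.52), while C2, a protease of the classical pathway, was not called (0.48 ± 0.83). The genes that were higher were properdin, Cfp, by 3.79 ± 0.56, factor B, Cfb, by 3.15 ± 0.46, and C3 by 2.31 ± 0.52. Of 12 complement genes, 3 were higher and 6 lower as deposited, and 3 and 7 with medians subtracted.

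Genes of clearance were called lower in part. Mertk, a receptor for apoptotic cells, stood at -1.86 ± 0.51, and its bridging ligands Pros1 and Gas6 at -2.24 ± 0.37 and -1.99 ± 0.42, while its relative Axl was not called (0.60, and -0.12 with medians subtracted). Without undifferentiated macrophage library 29, Mertk stood at -1.37 and was not called, and 2 genes of the list were lower. The scavenger receptor Msr1 was higher by 1.77 ± 0.46 as deposited and not called with medians subtracted. Of the 13 measured genes of phagocytic and TAM receptors, 2 were higher and 4 lower, or 0 and 5 with medians subtracted. Of 16 cathepsin and lysosome genes, 0 were called higher by limma and 8 lower, and 14 were lower with medians subtracted. The 8 became 5 when any one of microglial libraries 14 and 27 or macrophage libraries 13, 21 and 29 was left out. Ctsl was not called without microglial library 27 (-0.80) or macrophage library 29 (-1.06). Ctss was not called without microglial library 14 (-0.79) or 27 (-0.71), or without macrophage library 8 (-0.71), 13 (-0.78), 16 (-0.78) or 21 (-0.83). The papain-like protease Ctsf ran from -2.76 to -0.413 (median -1.57) against 0.524 to 1.84 (median 1.34), without overlap. Its difference was -3.17 ± 0.39 (adjusted p = 9.1e-06), the list's most negative, ahead of the endolysosomal protein Cd68 at -2.10 ± 0.55. Ctsl (-1.19 ± 0.36) and Ctss (-0.82 ± 0.30) were lower, while Ctsb was lower only with medians subtracted (-0.60 as deposited). Ctsd stood at -1.59 ± 0.35.

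**Figure D3:**
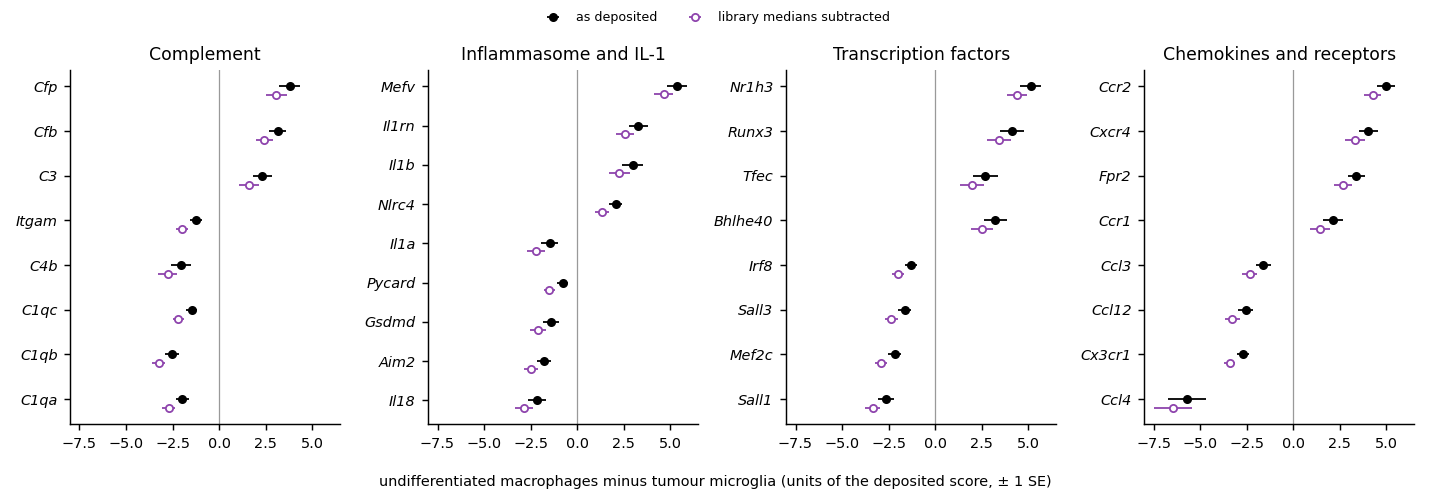
Fitted difference between undifferentiated macrophages and tumour microglia (horizontal axis, units of the deposited scale, bars ± 1 SE) for called genes of 4 functional groups, chosen after their values were seen, as deposited (filled) and with library medians subtracted (open). Each group holds genes on both sides of 0, and the subtraction moves every gene to the left by a similar amount without changing a sign.

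Single transcription factors differed in each direction. Sall1 ran from -2.76 to -0.503 in undifferentiated macrophages (median -1.20) and from 0.287 to 1.88 in tumour microglia (median 0.922), with no overlap and a difference of -2.64 ± 0.42 (adjusted p = 8.06e-05). Mef2c stood at -2.18 ± 0.33, Sall3 at -1.65 ± 0.36 and Irf8, required for microglial development, at -1.30 ± 0.31. Runx3 was higher by 4.13 ± 0.64. It ran from 0.371 to 3.38 (median 1.84) against -3.48 to 0.656 (median -1.99), so the highest microglial library overlapped the lowest macrophage one. Its relative Runx1 was not called as deposited (-0.58 ± 0.34). The helix-loop-helix factors Bhlhe40 and Tfec were higher by 3.22 ± 0.62 and 2.68 ± 0.66. Of 16 factors, 4 were higher and 5 lower, or 3 and 8 with medians subtracted, so the count on the higher side was not above the share over all genes as deposited (36.7%) and near it with medians subtracted (16.7%).

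Secreted signals differed gene by gene. Ccl4, a chemokine, ran from -4.27 to 0.469 in undifferentiated macrophages (median -1.59) and from 1.63 to 5.59 in tumour microglia (median 3.27). Its difference of -5.72 ± 1.02 (adjusted p = 0.000247) was the largest on the lower side among genes named by size, and the populations did not overlap. Ccl12 stood at -2.56 ± 0.41 and Ccl3 at -1.61 ± 0.41. Of 14 chemokines, 3 were higher and 3 lower, and 0 and 3 with medians subtracted, where limma called none higher. The 3 higher became 5 without undifferentiated macrophage library 24 or 29. Among 10 cytokines, 4 were higher and 2 lower, or 3 and 2. The interleukin-1 antagonist Il1rn was higher by 3.28 ± 0.52 beside Il1b, and Il10 by 2.65 ± 0.56. The alarmin Il1a was lower at -1.48 ± 0.45, a call lost without undifferentiated macrophage library 21 (-1.15), and Tnf was not called (-0.57).

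Genes of alternative activation and of tissue remodelling that were called were higher, apart from Timp2. Of 13 alternative activation genes, 8 were higher as deposited and 5 with medians subtracted, and limma called 0 lower. Arg1, which degrades arginine, was higher by 3.35 ± 0.90. It ran from 0.217 to 3.47 (median 2.14) against -3.87 to 2.57 (median -1.73), with overlap. The mannose receptor Mrc1 was higher by 3.31 ± 0.54, the checkpoint ligand Pdcd1lg2 by 3.75 ± 0.57 and Clec10a by 2.74 ± 0.60. Retnla (0.88) and the haemoglobin scavenger receptor Cd163 (0.62) were not called. Of 13 measured coagulation and matrix genes, 9 were higher and 1 lower, or 7 and 1 with medians subtracted. F7 and F10, which encode coagulation factors, were higher by 4.41 ± 0.50 and 4.32 ± 0.42. F10 ran from 0.446 to 3.58 (median 1.38) against -2.99 to -1.17 (median -1.91), without overlap. The membrane protease Mmp14 was higher by 2.94 ± 0.42 and thrombospondin, Thbs1, by 2.86 ± 0.52, and the inhibitor Timp2 was lower at -1.90 ± 0.30.

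Class II genes were called in both directions as deposited, and most class I and interferon genes in neither. Of 11 class II genes, 4 were called higher and 3 lower, and 0 and 4 with medians subtracted. The 4 higher as deposited were near the share over all genes (36.7%). H2-Ab1, a class II chain, was higher by 1.61 ± 0.41 as deposited and 0.89 ± 0.41 with medians subtracted (adjusted p = 0.0973). H2-Aa and H2-Eb1, further class II chains, were higher by 1.29 ± 0.39 and 1.42 ± 0.40 as deposited and not called with medians subtracted (0.57 and 0.70). The invariant chain Cd74 was not called (-0.32 ± 0.41). H2-Oa and H2-Ob, which restrain peptide loading, were lower at -2.13 ± 0.63 and -2.21 ± 0.48. Of 11 class I genes, 1 was higher and 1, B2m, lower (-0.90 ± 0.31), and of 15 interferon response genes 0 were higher by limma and 1, Oas2, lower (-1.26 ± 0.38). With medians subtracted, 3 class I and 5 interferon genes were lower and 0 higher. Among the genes not called as deposited were the class I chains H2-K1 (0.06) and H2-D1 (-0.42) and the interferon-induced Isg15 (0.36), Ifit1 (0.34) and Ifit2 (0.44). At an unadjusted p below 0.05, 2 of the interferon genes were higher as deposited. B2m was not called without undifferentiated macrophage library 21 (-0.85), and Oas2 not without library 29 of that population (-0.70) or tumour microglia library 27 (-1.03). Of 13 Fc receptors and C-type lectins, 5 were higher and 2 lower, or 4 and 3 with medians subtracted. The lectin Clec12a was higher by 4.11 ± 0.48, and the IgG receptors Fcgr3 and Fcgr1 were lower at -1.23 ± 0.36 and -1.11 ± 0.34.

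Metabolic and cycling genes depended on the centring. Of 17 proliferation genes, 1 was higher and 1 lower as deposited, and 11 were lower with medians subtracted. The proliferation marker Mki67 was not called as deposited (-0.88). Top2a, a topoisomerase of dividing cells, stood at -1.37 ± 0.56 as deposited (adjusted p = 0.051) and at -2.09 ± 0.52 with medians subtracted (adjusted p = 0.00536). Without tumour microglia library 27 it stood at -2.15 as deposited and was called. Of 16 oxidative phosphorylation genes, 1 was higher and 2 lower, or 0 and 9. Of 16 glycolysis and hypoxia genes, 5 were higher and 1 lower, or 0 and 3, with Vegfa at 2.54 ± 0.70 as deposited and Hk2 at -1.30 ± 0.36. Of 16 immediate early genes, 4 were higher and 2 lower, or 0 and 3, and Egr1 and Jun were the genes called lower as deposited, at -1.50 ± 0.41 and -1.09 ± 0.34. Without tumour microglia library 27 neither was called (-1.24 and -0.92), and without undifferentiated macrophage library 29 Jun was not (-0.99) and 2 early genes were higher. The 1 proliferation gene called lower became 4 without tumour microglia library 22 or undifferentiated macrophage library 8 and 3 without tumour microglia library 14.

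**Figure D4:**
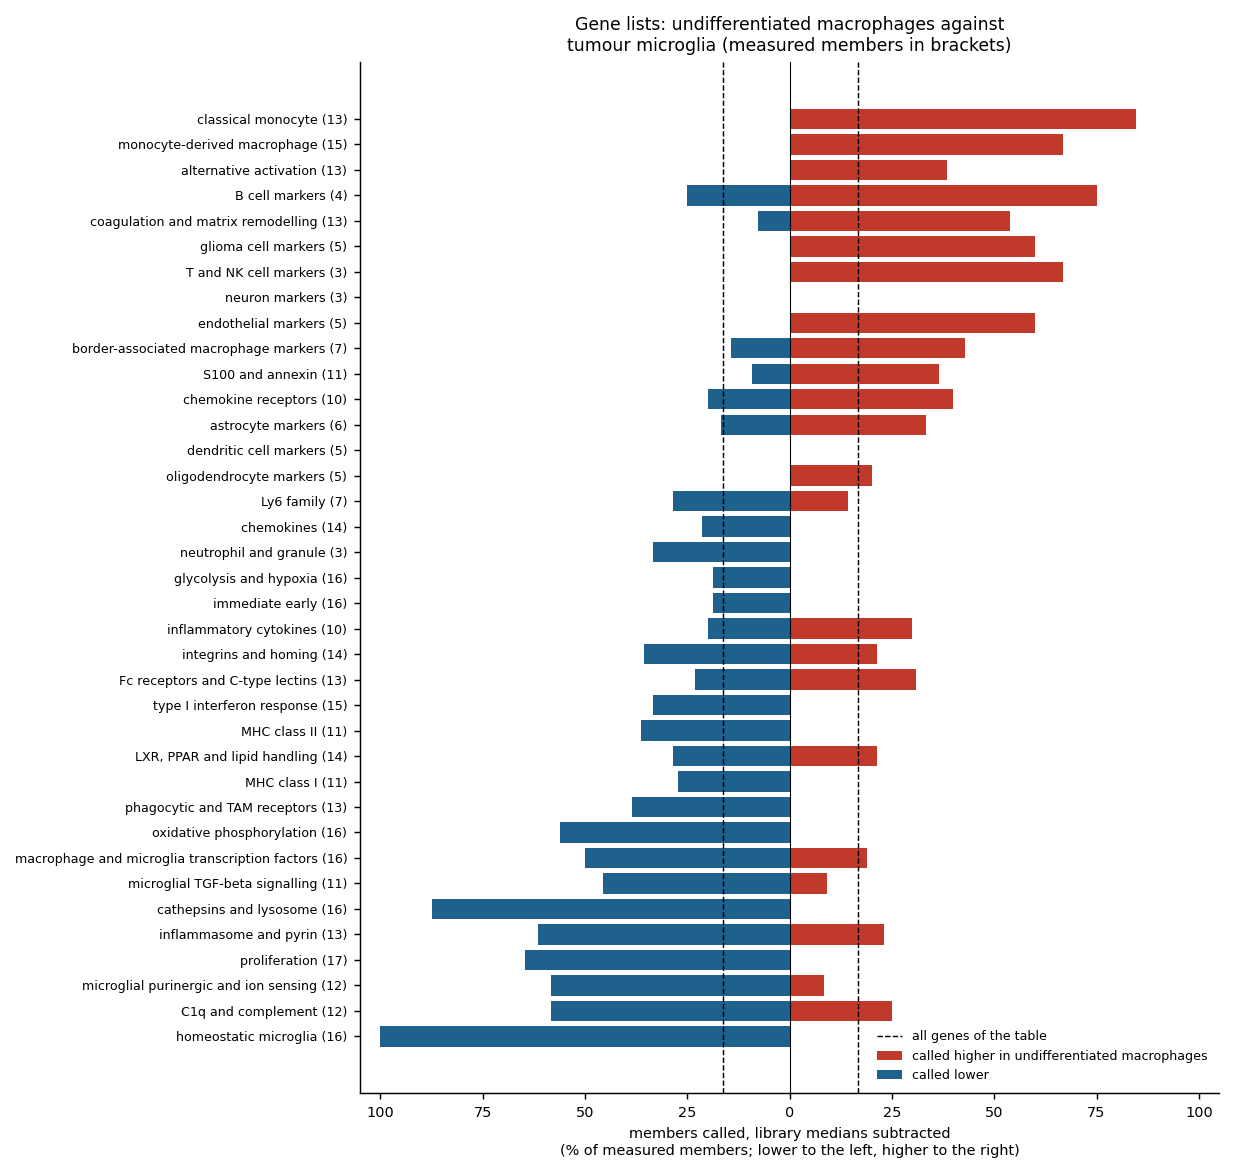
Share of the measured members of each of 37 gene lists called higher (right) or lower (left) in undifferentiated macrophages with library medians subtracted (horizontal axis, %), with dashed lines at the shares over all genes, 16.7% and 16.3%. The classical monocyte list is at the top with 84.6% higher and the homeostatic microglia list at the bottom with 100% lower.

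Gene families showed that the offset between the populations was not the same for all genes. Among symbol families of the whole table, Adam and Adamts proteases and semaphorins with plexins both had a median difference of 1.86, collagens 1.78 and protocadherins 1.76. The 544 olfactory receptors, sensory receptors of the nasal epithelium, had a median of 1.53, and 375 of them were called higher as deposited and 118 with medians subtracted. Without tumour microglia library 27 the 375 became 211. In contrast, the 79 cytosolic ribosomal proteins had a median of 0.20, the 40 complex I subunits -0.05 and the 14 cathepsins -0.63. Immune families varied within themselves. Of 8 Ms4a genes, 7 were higher as deposited and 4 with medians subtracted, led by Ms4a7 at 3.45 ± 0.53. Of 16 C-type lectins 11 were higher as deposited and 7 with medians subtracted, and limma called 0 lower. Of 8 Siglecs 1 was higher and 3 lower as deposited, and 0 and 6 with medians subtracted. When each library was centred on its olfactory receptors, 546 genes were called higher and 6243 lower, and when centred on ribosomal proteins 5078 and 1149. The monocyte list kept 8 of 13 members called higher under the first and all 13 under the second centring, and the microglial list 16 of 16 called lower under both.

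**Figure D5:**
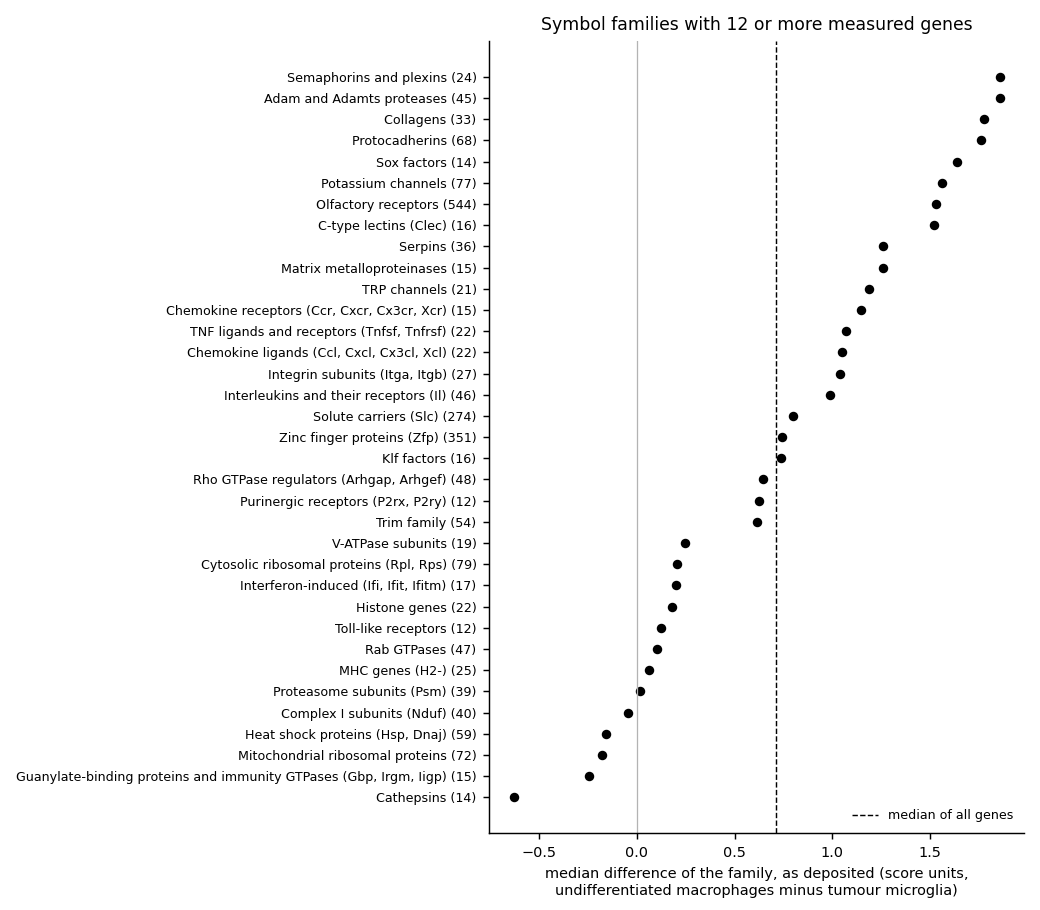
Median fitted difference as deposited (horizontal axis, units of the deposited scale) of each symbol family with 12 or more measured genes, with a dashed line at the median of all genes. Families run from -0.63 for cathepsins to 1.86 for semaphorins and plexins, with olfactory receptors at 1.53 and ribosomal proteins at 0.20.

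Markers of several other cell types were called higher in undifferentiated macrophages beside the monocyte genes, fewer of them with medians subtracted. Of the measured markers, 4 of 5 for glioma cells, 3 of 5 for endothelium, 3 of 4 for B cells, 4 of 6 for astrocytes, 2 of 3 for T and NK cells and 5 of 7 for border-associated macrophages were called higher as deposited, where 36.7% of all genes were. With medians subtracted, where 16.7% of all genes were higher, the counts in the same order were 3, 3, 3, 2, 2 and 3. The genes called as deposited included Cspg4 (2.51 ± 0.57) and Pdgfra (2.32 ± 0.43) of glioma cells, Vwf (2.50 ± 0.40) and Tek (2.45 ± 0.48, and 1.54 without tumour microglia library 27) of endothelium, and Cd79a (2.50 ± 0.48) and Ebf1 (2.45 ± 0.42) of B cells. The B cell gene Cd79b was lower at -1.45 ± 0.58, a call lost when any one of 12 of the 16 libraries was left out (values from -1.92 to -0.99), and so was the astrocyte transporter Slc1a3 at -1.53 ± 0.38. Among the border-associated markers 1 gene was called lower both ways, at -1.04 as deposited and -1.76 with medians subtracted. Of the measured markers for oligodendrocytes 1 of 5, for neurons 2 of 3 and for dendritic cells 2 of 5 were higher as deposited, and 1, 0 and 0 with medians subtracted by limma. Of 3 neutrophil markers Cxcr2 was higher (1.69 ± 0.46, and 0.93 and not called without tumour microglia library 27) and Csf3r lower (-1.30 ± 0.35). The mean score of the glioma markers ran from 0.33 to 1.45 in undifferentiated macrophages and from -1.99 to -0.132 in tumour microglia. For endothelial markers it ran from 0.0971 to 1.30 against -1.68 to -0.495, for B cells from -0.18 to 1.07 against -1.32 to 0.281, and for astrocytes from 0.0159 to 0.986 against -0.971 to 0.494. The median difference of the glioma markers was 1.94 and that of the endothelial markers 1.65, beside 1.53 for olfactory receptors. With libraries centred on olfactory receptors, limma called 0 of the glioma and endothelial markers in either direction. The named ones stayed positive there. Cspg4 stood at 1.05 (limma adjusted p = 0.16), Pdgfra at 0.86 (0.1), Vwf at 1.04 (0.068) and Tek at 0.99 (0.062). The border-associated count of 5 became 3 when any one of microglial libraries 6, 22 and 27 or macrophage libraries 8, 13, 21 and 32 was left out. A score of 0 does not mean absence on this scale, so undetected markers cannot be named, and the part of other cells in the results above was not tested.

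The contrast was estimated in each recipient strain. Among tumour libraries the strain difference of this contrast is the same contrast as experiment 4 against experiment 3 of the labels, so strain and experiment cannot be told apart. Within a strain, the macrophages and the microglia also came from different experiments. Population and experiment therefore cannot be told apart in the values of a single strain. In WT recipients 31 genes were called higher and 25 lower, and in Pep3 recipients 4774 and 479. Of the 7361 genes called over both strains, 6872 had the same sign in each. Ly6c2 differed by 5.02 in WT and 6.13 in Pep3 recipients, Tgfbi by 4.84 and 5.28, and Nr1h3 by 4.64 and 5.60. P2ry12 differed by -1.92 and -4.55, and Siglech by -2.56 and -4.97. The difference between the strains was tested for every gene, and 1 gene, mKIAA0897, was called (-4.03 in WT and 3.42 in Pep3 recipients, adjusted p = 0.021). At an unadjusted p below 0.05 it was 2847 genes (16.2%), and 47.8% of that contrast was left in the table, so differences between strains in single genes were not resolved.

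Against differentiated macrophages, which share the undifferentiated libraries with the main contrast, the other monocyte genes were not called. Plac8 stood 3.59 ± 0.74 higher in undifferentiated macrophages (adjusted p = 0.32), Fpr2 2.15 ± 0.51 (adjusted p = 0.66), S100a6 1.84 ± 0.61 and Ccr2 1.72 ± 0.56. Mefv (1.20 ± 0.61), Nr1h3 (0.81 ± 0.63), P2ry12 (-0.80 ± 0.47) and Tmem119 (-0.50 ± 0.34) were closer to 0. Of that contrast 67.6% was left in the table against 85.4% of the main one, and a p that misses the threshold does not show that the macrophage populations were alike.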

How the data were processed

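RNA of sorted cell populations from mouse brain and glioma was sequenced. The authors deposited one table of signed scores per gene and library with 17586 genes and 32 libraries, in a unit that is not stated. Per the submitters' processing notes, FastQC, STAR 2.5.0a, RSEM 1.3.0 and the build mm9 were used, and the steps that made the scores are not given in the sources used here. Counts were not analysed here, so depth is unknown.

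The table varies in 21 of 32 sample directions. limma 3.58.1 (R 4.3.3) was fitted to all genes with means by population and recipient strain, and the 11 directions without variation entered as covariates (15 residual degrees of freedom). Robust empirical Bayes and a Benjamini-Hochberg adjusted p below 0.05 over all genes were used, with no filter and no pseudocount, and the code was tested on simulated data. Errors are standard errors.

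The compared populations, the gene lists and the naming rule were chosen with earlier results of these data known. The rule took the 15 largest differences in each direction among genes called both ways without overlap, the first 4 measured and the 2 most changed called members per list in each direction, 5 markers, and the most changed called members per symbol family. It gave 253 genes (117 called higher, 83 lower, 53 not called), of which the text names 129 (51, 53 and 25), a choice made after their values were seen. The text names 29 more outside the rule, also chosen after their values were seen. Results for a few genes of the lists are not reported here. The alternatives were other scalings, other sets of libraries, library weights, ordinary empirical Bayes, a fit without the direction terms and a stricter threshold.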

Additional observations from a re-analysis of the deposited data

Results flagged for a closer look

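In each of the populations of 8, the lowest and highest score of every gene named here were set against the others of the population, which made 316 checks. In 20 of them 1 library lay far from the rest by Dixon's criterion, and chance gives about 1 in 20 such groups. The scores below are those of that library, in units of the deposited scale.

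Such values among undifferentiated macrophages came from the libraries that follow. Library 32 stood apart in Bin1 (-4.24), Cd68 (-3.23), Cd79b (-3.53), Gsdmd (-2.70), Msr1 (-0.489) and Smad3 (-1.43). Library 5 stood apart in Ccl3 (-1.95). Library 16 stood apart in Ctsd (0.0575) and Ctsl (0.642). Library 21 stood apart in Hp (5.27) and Thbs1 (3.30). Those among tumour microglia follow. Library 30 stood apart in Aim2 (-0.689) and Egr1 (-0.98). Library 6 stood apart in Chi3l3 (-4.56). Library 3 stood apart in Il10 (0.694), Slc1a3 (-0.345), Slc2a5 (2.87) and Timp2 (1.10). Library 22 stood apart in Itga6 (-0.551). Library 14 stood apart in Thbs1 (0.732).

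The gene mKIAA0897 differed between recipient strains. Its difference of undifferentiated macrophages from tumour microglia was lower by 7.45 units in C57BL/6J than in Pep3/CD45.1 recipients (-7.45), by limma's test of that difference itself. Strain and experiment cannot be told apart in it.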

How the results depend on the processing

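The number of genes called between undifferentiated macrophages and tumour microglia depended on scaling and on the libraries in the fit. The 6448 genes higher and 913 lower as deposited became 2934 and 2862 with library medians subtracted and 2818 and 2634 after quantile normalisation of the 32 libraries, where higher genes made up 50.6% and 51.7% of the calls in place of 87.6%. Without the 3 libraries of these populations that keep under 50% of their own variation, 2908 were higher and 598 lower. With only the 16 libraries compared, which leaves 3 residual degrees of freedom, 9 were higher and 0 lower by limma, and 3083 genes had an unadjusted p below 0.05. Within C57BL/6J recipients 31 were higher and 25 lower (55.4% higher), and within Pep3/CD45.1 recipients 479 were lower. The direction terms, library weights, ordinary empirical Bayes and a difference beyond 1 unit kept both counts within 1.5 times. Over the fits that each left out 1 library, 4299 to 6423 genes were higher and 647 to 898 lower. Chosen after seeing the data, centring on olfactory receptors gave 546 higher and 6243 lower (8.04% higher), and centring on ribosomal protein genes kept both counts within 1.5 times. Also chosen then, leaving out the 3 libraries with medians subtracted gave 963 higher, 44.5% of the calls, and leaving out all 9 such libraries of the series gave 3 higher and 0 lower by limma, with 2550 genes at an unadjusted p below 0.05 and 6 residual degrees of freedom. In no alternative was a gene called in the direction opposite to its call as deposited. An opposite call needs a change larger than the difference itself, so this is a weak check of direction. Of the 7361 genes called as deposited, 1568 had a fitted difference of opposite sign when centred on olfactory receptors. Within C57BL/6J recipients 474 did, without the 9 libraries 430, and with library medians subtracted 0. The causes of these changes were not tested. The fits that leave libraries out also have fewer libraries and degrees of freedom.

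Most named genes called as deposited lost their call with only the 16 libraries compared, and most also did within C57BL/6J recipients. P2ry12, Cx3cr1 and Siglech lost it in both of these fits. Ly6c2 and Tmem119 lost it with the 16 libraries and kept it within C57BL/6J recipients. The differences of these genes kept their sign in both fits. Some named genes had a fitted difference of the opposite sign under an alternative. With library medians subtracted, the differences of opposite sign were Abcg1 -0.25, Axl -0.12, C2 -0.24, Ccl2 -0.69, Cd163 -0.10, H2-K1 -0.66, Ifit1 -0.38, Ifit2 -0.29, Isg15 -0.36, P2rx4 -0.33, P2rx7 -0.55 and Smad3 -0.60. After quantile normalisation, the differences of opposite sign were Abcg1 -0.26, C2 -0.21, Ccl2 -0.54, Cd163 -0.14, H2-K1 -0.53, Ifit1 -0.20, Ifit2 -0.12, Isg15 -0.13, P2rx4 -0.24, P2rx7 -0.52 and Smad3 -0.46. Without terms for the directions that carry no variation, the differences of opposite sign were Ccl2 -0.25 and H2-K1 -0.078. With only the 16 libraries compared, the differences of opposite sign were Abcg1 -0.015, Casp1 0.58, Cd74 0.15, Cd79b 0.14, H2-K1 -0.14, Ifit1 -0.024, Ifit2 -0.19, Ifitm3 0.068, Mylip 0.13, Nlrp3 0.40, Nr1h2 0.37, Retnla -0.34, Tgfb1 1.15 and mKIAA0897 0.0093. Without the 3 libraries, the differences of opposite sign were C2 -0.035, Cd163 -0.0025, H2-K1 -0.015, P2rx7 -0.79 and Smad3 -0.41. With library weights, the differences of opposite sign were P2rx7 -0.30. In C57BL/6J recipients, the differences of opposite sign were Ccl2 -0.42, Ctss 0.16, H2-D1 0.066, H2-K1 -0.17, Ifitm3 1.24, Mylip 0.11, Nlrp3 0.22, P2rx7 -0.70, Ppard -0.74 and Tgfb1 0.22. In Pep3/CD45.1 recipients, the differences of opposite sign were Cd74 0.29, Ifit1 -1.40, Ifit2 -1.32, Isg15 -0.54, Nr1h2 0.15, Rxra 0.29, Smad3 -0.066, Tnf 1.00 and mKIAA0897 3.42. With ribosomal protein medians subtracted, the differences of opposite sign were Ccl2 -0.17, H2-K1 -0.15, P2rx7 -0.033 and Smad3 -0.084. With olfactory receptor medians subtracted, the differences of opposite sign were Abcg1 -0.99, Axl -0.86, C2 -0.98, Ccl2 -1.43, Ccl7 -0.22, Cd163 -0.84, H2-Aa -0.17, H2-Eb1 -0.040, H2-K1 -1.40, Ifit1 -1.12, Ifit2 -1.02, Isg15 -1.10, Lyz2 -0.21, P2rx4 -1.06, P2rx7 -1.28, Ppard -0.52, Retnla -0.58, S100a11 -0.023 and Smad3 -1.33. Without the 3 libraries and with medians subtracted, the differences of opposite sign were C2 -0.56, Ccl2 -0.39, Cd163 -0.53, H2-K1 -0.54, Ifit1 -0.30, Ifit2 -0.44, P2rx7 -1.32 and Smad3 -0.93. Without the 9 libraries, the differences of opposite sign were Abcg1 -0.74, C2 -0.19, Casp1 0.72, Cd74 1.26, Cd79b 0.39, H2-K1 -0.15, Ifit1 -1.39, Ifit2 -1.06, Ms4a4c -0.029, Nr1h2 1.30, P2rx7 -0.020, P2ry6 0.35 and Tgfb1 1.32. Over the fits that each left out 1 library, these genes crossed 0: C2 from -0.28 to 0.99, Ccl2 from -0.24 to 0.43, H2-K1 from -0.052 to 0.12, Ifit2 from -0.011 to 0.79, Ifitm3 from -0.82 to 0.068, P2rx7 from -0.76 to 0.53 and Smad3 from -0.19 to 0.37. The depth of these libraries is unknown, so no limit from depth can be given. No paired analysis was possible because the labels give every library a number of its own, the groups share none, and no label ties libraries of the groups to one animal, litter or day.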
